A study of Homo sapiens with 4 samples.

Results

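The small leucine-rich proteoglycans (SLRPs) are a family of secreted matrix proteins, and the members described here were LUM, DCN, BGN, FMOD, OGN, PRELP, ASPN, OMD, KERA and EPYC. All 10 were found by gene symbol among the 19314 genes listed, and 6 of the 10 had a value. They were picked with the difference between the groups already known, so their own differences are a description. Where a member is said to pass or miss a call rule, that is a label beside the share of all genes and supports nothing. RNA came from U87, a human malignant glioma cell line, in 4 libraries. The group PTP2 (2 libraries, replicates 1 and 2) carries the genotype label PTPRN knockdown, and the group SCR (2 libraries, replicates 1 and 2) carries the label SCR and is the control. In the study, the knockdown was made with short-hairpin RNAs in the pLKO.1 vector and the control with a hairpin that matches no known human coding gene, but whether the SCR libraries came from cells with that control vector is not stated for the sequencing itself. Time after transfection is not given for these libraries, and the labels do not say which of the 2 PTPRN hairpins PTP2 stands for. No label says that replicates came from separate cultures, so the spread between them may be technical. The growth protocol in the labels names hCMEC/D3, a brain endothelial line, in DMEM/F12 with B27, EGF and bFGF, whereas the study's methods name U87 in DMEM with serum for general culture and a medium with B27 for a stem cell assay.

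SLRPs consist of a short protein core of leucine-rich repeats that curves around its ligands. Most carry chains of chondroitin, dermatan or keratan sulfate. They bind the surface of collagen fibrils and set fibril width and spacing, and several also hold growth factors of the TGF-beta family or act on receptors of the cell surface. They are best known as products of fibroblasts, bone, cartilage, tendon and cornea. In the brain they are found mainly in meninges and vessel walls.

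Values were FPKM, which are read numbers scaled to transcript length and to the library total, and levels of different genes can therefore be compared per length. The steps between low FPKM values put the depth at about 18050000 and 18000000 reads in PTP2 and 19550000 and 18000000 in SCR. PTPRN itself had 12.1 and 11.7 FPKM in PTP2 and 84.8 and 85.0 in SCR. VIM, CD44, FN1 and 5 more markers of mesenchymal glioma lines each had a mean of at least 10 FPKM in 1 group or both. By the call rule given below, 2 of these 8 were higher in PTP2 and 4 lower, against 2.63% and 4.06% of all genes. VIM and CD44 were the 2 higher, and FN1 had a mean of 421 FPKM in SCR and 51.6 in PTP2. The genes known to be deleted in U87 were at most 0.34 (CDKN2A, MTAP) or without a value (CDKN2B). Among astrocyte markers GFAP was between 0.11 and 0.55 FPKM, and SLC1A3 had 5.81 and 5.99 in SCR and 10.2 and 9.76 in PTP2. Among 8 endothelial markers with a value 0 were called, against 6.69% of all genes, and the highest value was 2.50, in PECAM1. A gene below 1 FPKM in each library cannot reach a 2-fold change on the log2(FPKM + 1) scale, so it cannot be called. At an adjusted p of at most 0.05 (limma), 2 of the 8 were lower in PTP2 and 2 higher, against 27.1% and 30.8% of all genes. Endothelial CDH5 was at most 0.03 and CLDN5 was listed at 0 in 3 libraries, while VWF had 0.98 and 0.93 FPKM in SCR and 0.06 and 0.05 in PTP2, and ERG had 0.07 and 0.07 in SCR and 0.68 and 0.94 in PTP2. The groups also stood apart in the genes of chromosome Y. Of 17 genes with a value that RefSeq places on that chromosome alone, 7 had at least 1 FPKM in both SCR libraries, and all 7 were at or below 0.1 FPKM in both PTP2 libraries. Of all genes with at least 1 FPKM in both SCR libraries, 0.323% were that low in PTP2, and BGN was 1 of these 36 genes. All 4 libraries are labelled as the same cell line. A difference between the cells of the groups, whatever its origin, and an effect of the hairpin cannot be told apart in any comparison given here, since the groups differ in both.

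The call rule asked for a 2-fold or larger change together with an adjusted p no higher than 0.001 (limma on log2(FPKM + 1), Benjamini-Hochberg over 16595 genes), and 6.69% of the genes passed it. An exact permutation test of 2 libraries against 2 cannot go below p = 0.333 (two-sided), so these calls lean on the spread shared across genes. With any 1 library left out, 0 genes passed the adjusted p of 0.001, while 8700 to 8790 genes had an unadjusted p under 0.05.

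Among the family, lumican carried most of the transcript in SCR and had the lowest log2 fold change on the log2(FPKM + 1) scale. The 6 members with a value summed to 65.7 and 63.4 FPKM in SCR and to 3.50 and 3.48 in PTP2. LUM made up 82.3% and 83.2% of that sum in SCR, and 42.3% and 42.0% in PTP2. By the call rule 3 members were lower in PTP2 (LUM, DCN and BGN), 0 were higher and 3 were not called. Of all genes tested, 4.06% were called lower. Nothing is read from this count, since the members were chosen on the same comparison. At an adjusted p of at most 0.05 with no minimum fold, 4 members were lower and 0 were higher, and of all genes 27.1% were lower by that rule and 57.9% passed it in either direction. The median log2 fold change (PTP2 minus SCR) of the 6 members with a value was -1.18, against 0.01 over all genes tested. Both PTP2 libraries lay below both SCR libraries in 4 members, and in the other 2 the groups overlapped. Of all genes 35.8% had both PTP2 libraries below, 39.7% had both above, and 75.6% did not overlap in either direction.

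**Figure D1:**
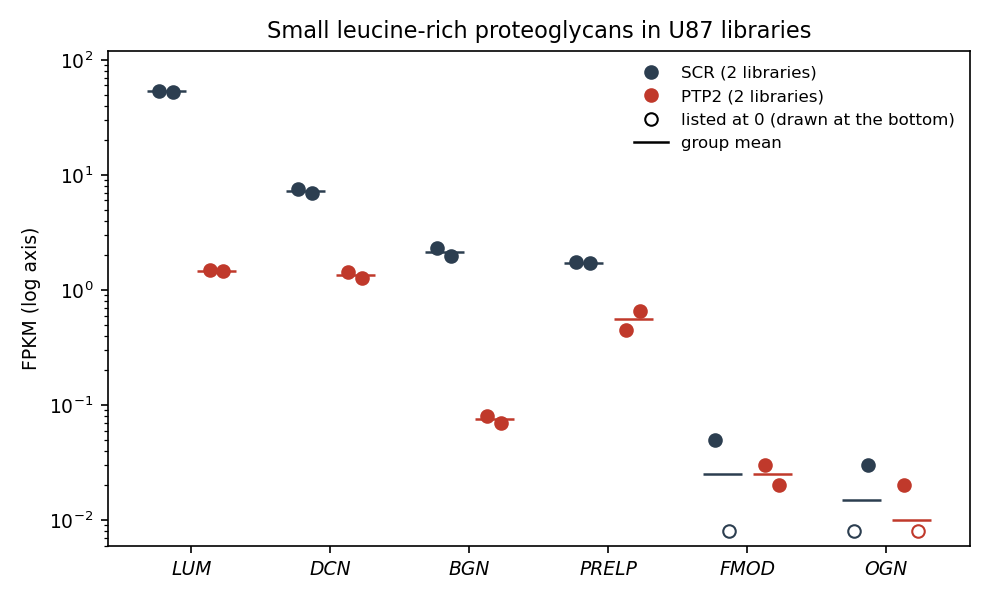
FPKM on a log axis of the 6 members with a value; each point is a library (2 SCR and 2 PTP2), the lines are group means, and open points are libraries listed at 0. LUM, DCN, BGN and PRELP are lower in both PTP2 libraries, and FMOD and OGN stay at or below 0.05 FPKM in all 4.

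The class II members bind collagen through their leucine-rich repeats and can carry keratan sulfate. LUM (lumican, Gene ID 4060), which spaces the collagen fibrils of cornea and skin, had 54.1 and 52.7 FPKM in the SCR libraries and 1.48 and 1.46 in the PTP2 libraries. The groups lay far apart, and replicates of a group were close to each other. The means were 53.4 ± 0.940 (SD, n = 2) in SCR and 1.47 ± 0.0141 (SD, n = 2) in PTP2, a 36.3-fold lower level in PTP2. Over the 4 pairs of libraries that ratio ran from 35.6 to 37.0. These levels stand for roughly 2183 and 1961 reads in SCR and 55 and 54 in PTP2, which gives the ratio a 95% counting interval of 30.2 to 44.6. In SCR, LUM had a higher level than 91.5% of the genes with a value, and in PTP2 a higher level than 36.0% of them. Its log2 fold change on the log2(FPKM + 1) scale was -4.46, and 0.0241% of the genes had a lower one.

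PRELP (Gene ID 5549), whose basic N-terminal part binds heparin and which anchors basement membranes to the matrix below, had 1.74 and 1.71 FPKM in SCR and 0.45 and 0.66 in PTP2. Both PTP2 values were below both SCR values, and they differed from each other more than the 2 PTP2 values of LUM did. The mean level was 3.11-fold lower in PTP2, with 2.59 to 3.87 over the 4 pairs of libraries. On the log2(FPKM + 1) scale the difference was -0.81, which is under the minimum fold of the call rule because a pseudocount of 1 shrinks changes of low genes. With a pseudocount of 0.1 it was -1.50. FMOD (fibromodulin, Gene ID 2331), which modulates the early growth of collagen fibrils, had 0.05 and 0 FPKM in SCR and 0.03 and 0.02 in PTP2. That is about 3 and 0 reads against 2 and 1, so no fold is given. KERA (keratocan, a corneal member) and OMD (osteomodulin, found in bone) were listed without a value in any library.

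The class I members DCN and BGN carry chondroitin or dermatan sulfate. DCN (decorin, Gene ID 1634), which binds collagen fibrils, TGF-beta and several receptor tyrosine kinases, had 7.57 and 6.95 FPKM in SCR and 1.44 and 1.27 in PTP2. The groups did not overlap. The means were 7.26 ± 0.438 (SD, n = 2) and 1.36 ± 0.120 (SD, n = 2), a 5.36-fold lower level in PTP2, with 4.83 to 5.96 over the 4 pairs of libraries. BGN (biglycan, Gene ID 633), the closest relative of decorin and a ligand of the innate receptors TLR2 and TLR4, had 2.30 and 1.96 FPKM in SCR and 0.08 and 0.07 in PTP2. The mean level was 28.4-fold lower in PTP2, with 24.5 to 32.9 over the 4 pairs of libraries. Only about 3 reads stood behind each PTP2 value of BGN, against 108 and 85 in SCR, and the 95% counting interval of the ratio from these rounded reads was 13.9 to 85.2. That interval covers the ratio of LUM, so the order of these 2 ratios is not resolved. ASPN (asporin, found in cartilage and the periodontal ligament) had no value.

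The order of levels therefore differed between the groups. In SCR it was LUM, DCN, BGN, PRELP, and the BGN libraries (1.96 and 2.30) lay just above those of PRELP (1.71 and 1.74). In PTP2 LUM and DCN were at 1.48 and 1.46 against 1.44 and 1.27, PRELP followed and BGN was below it. The ratio of LUM to DCN levels was 7.14 and 7.59 in the SCR libraries and 1.03 and 1.15 in the PTP2 libraries. Of the class III members, OGN (osteoglycin, also called mimecan) had 0 and 0.03 FPKM in SCR and 0.02 and 0 in PTP2, which is at most 2 reads in a library. EPYC (epiphycan, of growth plate cartilage) had no value. Counts and intervals given here cover counting error only.

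**Figure D2:**
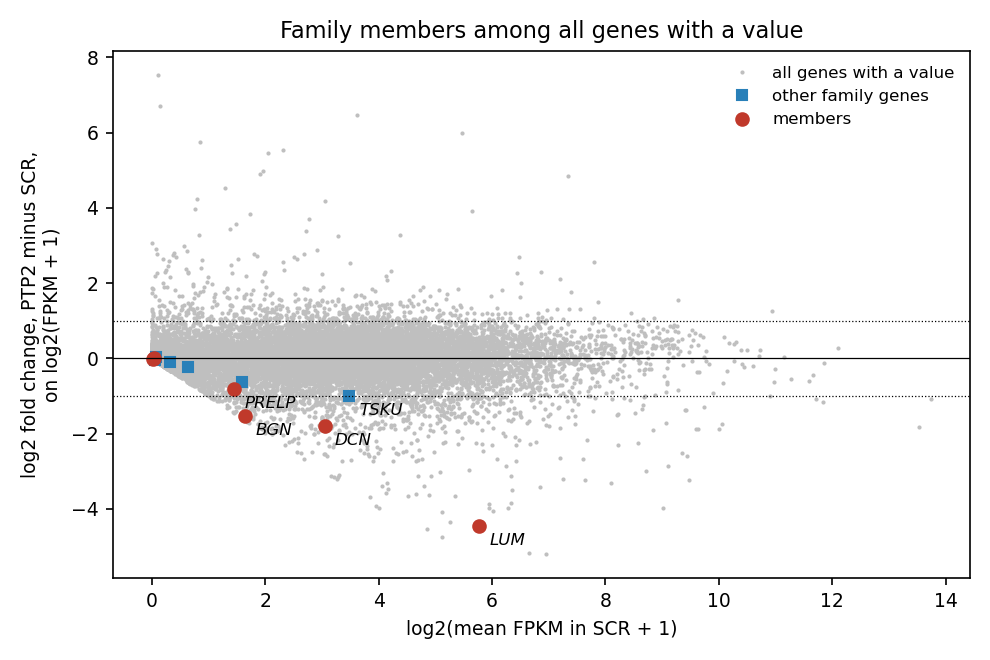
Log2 fold change (PTP2 minus SCR, on log2(FPKM + 1)) against the mean level in SCR as log2(FPKM + 1) for all 16595 genes with a value, with the 6 members in red and 6 further genes of the family in blue; dotted lines mark a fold of 2. LUM lies at -4.46, DCN at -1.81, BGN at -1.54 and PRELP at -0.81.

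Of the rest of the family, 6 of 8 genes had a value. By limma 0 of these were called in either direction, and 2 of the 6 had an unadjusted p under 0.05, against 62.2% of all genes. The median log2 fold change was -0.16. TSKU (tsukushi, a secreted modulator of BMP and Wnt signals) had 10.8 and 9.47 FPKM in SCR and 4.30 and 4.77 in PTP2. Its difference on the log2 scale was -1.01 (limma, adjusted p = 0.00175), so it missed the call by its p alone, and it was called when only genes with 1 FPKM in 2 or more libraries were fitted. PODNL1 had 2.11 and 1.88 FPKM in SCR and 1.11 and 0.75 in PTP2 (log2 fold change -0.64, adjusted p = 0.0126, limma). ECM2, CHAD, OPTC and CHADL stayed under 1 FPKM in every library, with ECM2 the highest at 0.70. At such levels a 2-fold change cannot be reached on the log2(FPKM + 1) scale, so the call rule could not call these genes. NYX and PODN had no value.

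The members fall into 4 places in the genome (GRCh38, as the deposited table gives positions). EPYC, KERA, LUM and DCN lie next to each other on the minus strand of chromosome 12 within 219446 bases, from 90963679 to 91183124, and 31511 bases separate LUM from DCN. Of these 4 neighbours only LUM and DCN had a value. The nearest listed genes with a value on either side were ATP2B1, a calcium pump gene at 30.8 and 33.3 FPKM in SCR and 52.4 and 55.2 in PTP2 (log2 fold change 0.73), and BTG1, an anti-proliferative gene at 12.9 and 13.5 in SCR and 11.6 and 10.9 in PTP2 (-0.21). Neither was called, and they lie 1307611 and 957153 bases from the cluster. OGN, OMD and ASPN lie within 99670 bases of chromosome 9, inside CENPP on the other strand, and CENPP had 2.11 and 2.11 FPKM in SCR against 2.91 and 3.37 in PTP2. FMOD and PRELP lie on chromosome 1 with OPTC 2790 bases behind PRELP, and of the neighbours there ATP2B4 had the highest level (43.2 and 44.1 FPKM in SCR, 36.9 and 41.0 in PTP2). BGN lies alone on chromosome X from 153494889 to 153509554. By the deposited positions HAUS7, on the other strand, ends 24257 bases before BGN, while in the GENCODE 29 annotation it overlaps the first part of BGN. HAUS7 had 4.29 and 3.77 FPKM in SCR and 6.73 and 5.83 in PTP2. Whether the counting used strand is not given in the sources used here. If strand was not used, reads of CENPP and the members inside it cannot be told apart. The same holds for BGN and HAUS7 only if the counted gene models overlapped as in GENCODE 29.

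**Figure D3:**
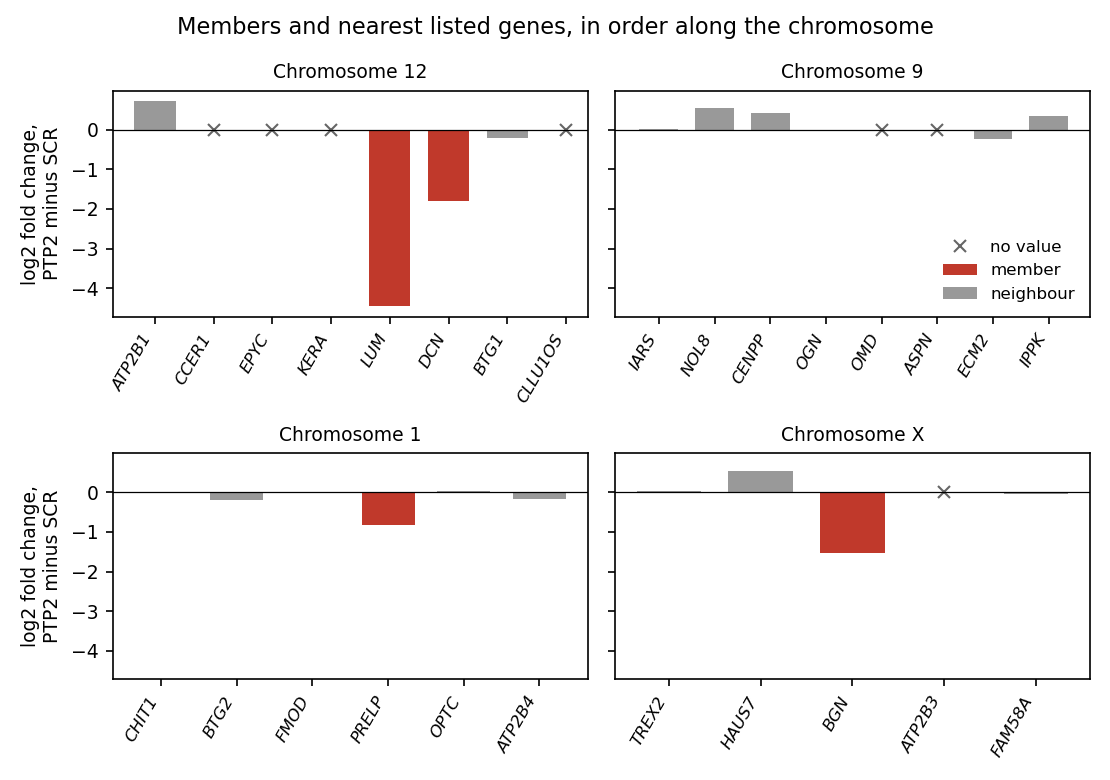
Log2 fold change (PTP2 minus SCR, on log2(FPKM + 1)) of the members (red bars) and the nearest listed genes (grey bars) in order along chromosomes 12, 9, 1 and X; crosses are genes without a value. LUM, DCN, PRELP and BGN point down, FMOD and OGN are too near 0 for a visible bar, and the grey bars lie between -0.23 and 0.73.

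The gene structures follow the classes. In GENCODE 29 the transcript with the longest coding sequence had 8 exons for DCN, BGN and ASPN, 3 exons for FMOD, LUM, PRELP, KERA and OMD, and 7 exons for EPYC and OGN. Coding lengths ran from 298 codons in OGN to 421 in OMD, with 338 in LUM, 359 in DCN and 368 in BGN. Members with a value and those without were found in each of the 3 classes. RefSeq start sites (GRCh38.p14) were at hand for BGN, FMOD, OGN, PRELP, ASPN and EPYC. The bases from 40 to 11 before the start are shown for BGN and PRELP, lower in PTP2, and for EPYC, which had no value, with capitals for the GC box GGGCGG read on either strand.
BGN (chrX:153494940-153494969, plus strand): ctgcccagcctttagcctcCCGCCCgccgc
PRELP (chr1:203475766-203475795, plus strand): ctccccaccccaataggatctggtggaaga
EPYC (chr12:91004983-91005012, minus strand): ggggcaaataccactagctctgcatcctca
The TATA motif TATAAA, searched on the given strand, occurred in this window in none of the 7 starts listed for these 6 members, and in 2.34% of 35116 listed promoters. Over the 250 bases before the start, GGGCGG was found for BGN and FMOD and for none of the other members listed, against 42.6% of all promoters. G and C made up 74.0% of that stretch in BGN, 52.8% in PRELP and 35.6% in EPYC, where the median of all promoters was 58.0%. BGN and PRELP, both lower in PTP2, thus had unlike start regions.

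The targets of the 2 PTPRN hairpins in the study's oligo list were compared with the members' transcripts. Capitals mark the bases that pair with positions 2 to 8 of the guide strand.
shPTPRN-1: aaggtgtgctccgACAACTCa
shPTPRN-2: aactgcctccaagGGCATATt
Both match PTPRN with 0 mismatches among 19669 protein-coding genes of GENCODE 29. For shPTPRN-2 the best site had 7 mismatches in LUM, 8 in DCN, 9 in BGN and 6 in PRELP. Of the genes, 25% had a site with 7 or fewer and 4.49% had a site with 6 or fewer. For shPTPRN-1 it had 8 mismatches in LUM, DCN and BGN and 7 in PRELP, and 66.4% of the genes had a site with 8 or fewer. The 7 bases GGCATAT occurred in DCN (1 site in a transcript) and in no other member, and 12.5% of the genes held them. ACAACTC occurred in DCN (2 sites) and ASPN (1 site), against 16.8% of the genes. For the control hairpin of that list, the matching 7 bases CGCCCTC occurred in BGN (1 site) and PRELP (2 sites), against 21.2% of the genes. Off-target action of a hairpin on these genes was not tested.

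Genes that build, hold or cut the proteoglycans were counted from 7 lists of companions. Of 84 companion genes with a value, 17 fell and 5 rose with the call rule in PTP2, and their median log2 fold change was -0.35. Over all genes, 4.06% fell and 2.63% rose. These lists were written with earlier results of these data known, and nothing particular to them is claimed. At an adjusted p of at most 0.05 the 84 genes gave 45 lower and 14 higher, against 27.1% lower and 30.8% higher over all genes.

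**Figure D4:**
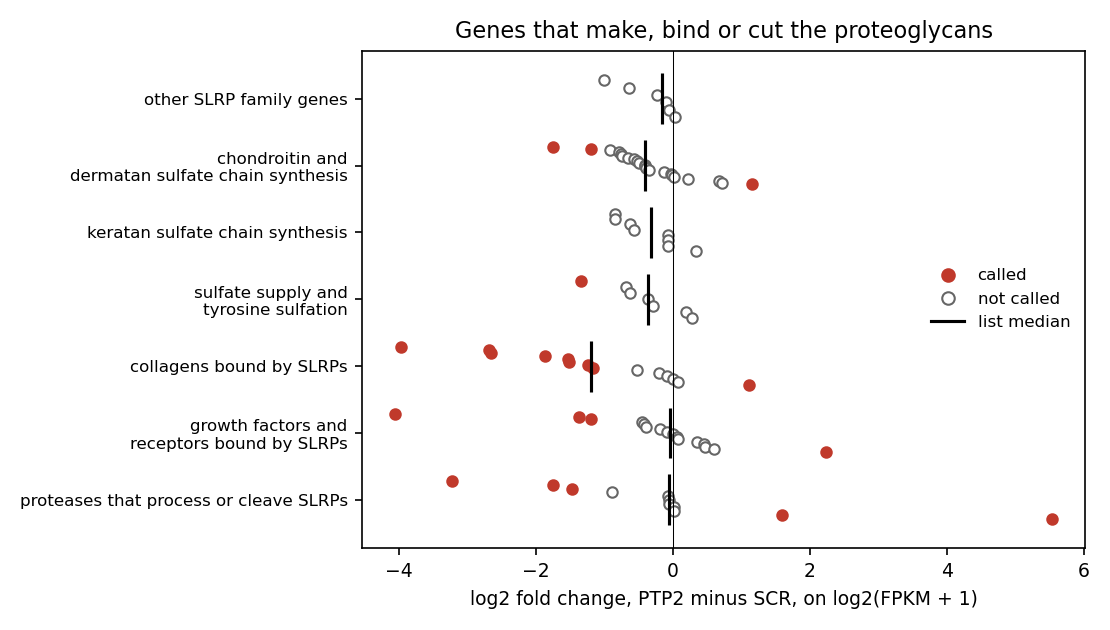
Log2 fold change (PTP2 minus SCR, on log2(FPKM + 1)) of each gene with a value in the 7 companion lists; filled points passed the call rule and the bars are list medians. The collagens have a median of -1.20, and MMP3 stands farthest to the right at 5.54.

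Most of the listed collagens that SLRPs coat fell, as counted by the call rule. Of 14 collagen genes, 8 fell and 1 rose, against 4.06% and 2.63% of all genes. Their median log2 fold change was -1.20. The list was written with earlier results of these data known, so nothing is read from this count. COL1A1 and COL1A2, the chains of type I collagen, had 525 and 515 FPKM and 801 and 794 FPKM in SCR. In PTP2 COL1A1 had 31.3 and 33.2 (log2 fold change -3.97, adjusted p = 1.33e-04, limma) and COL1A2 had 217 and 218 (-1.87, adjusted p = 1.58e-04, limma). COL5A1, a chain of the collagen that starts type I fibrils, fell by 2.68 on the log2 scale, and COL6A3, of the beaded filaments that biglycan and decorin link, fell by 2.65. COL3A1 was under 1 FPKM in each library (0.76 and 0.81 in SCR, 0.23 and 0.25 in PTP2) and COL11A2 was at most 0.32. COL5A3 was the gene that rose, from 1.10 and 1.00 FPKM to 3.36 and 3.52, and is named here after its value was seen.

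Enzymes of the sugar chains were counted by the same rule, which 6.69% of all genes passed (4.06% lower and 2.63% higher). Of 22 genes for chondroitin and dermatan sulfate with a value, 2 fell, 1 rose and 19 were not called, with a median log2 fold change of -0.41. At an adjusted p of at most 0.05, 14 of the 22 were lower and 4 higher, against 27.1% and 30.8% of all genes. PXYLP1, the phosphatase that removes a phosphate from the linker xylose, had 9.71 and 9.38 FPKM in SCR and 2.17 and 2.1 in PTP2 (log2 fold change -1.75, adjusted p = 2.23e-04, limma). CHST14, which sulfates dermatan sulfate, had 35.4 and 32.5 FPKM in SCR and 14.8 and 13.7 in PTP2 (log2 fold change -1.20, adjusted p = 7.19e-04, limma). CHST11, which sulfates chondroitin, rose from 5.89 and 6.28 FPKM to 14.4 and 15.1 (log2 fold change 1.15, adjusted p = 4.73e-04, limma). The chain-polymerizing factors CHPF and CHPF2 had log2 fold changes of -0.79 and -0.66 and were not called. For keratan sulfate 0 of 8 genes were called by limma, 5 had an unadjusted p under 0.05, which is near the 62.2% of all genes, and the median was -0.32. At an adjusted p of at most 0.05, 4 of the 8 were lower and 1 higher. Its most expressed genes, the galactosyltransferases B4GALT1 and B4GALT4, had log2 fold changes of -0.56 and -0.63. In the list of sulfate supply and tyrosine sulfation 1 of 7 genes was called. This was SLC35B3, a Golgi transporter of the sulfate donor, with 24.6 and 25.4 FPKM in SCR and 9.05 and 9.56 in PTP2 (log2 fold change -1.34, adjusted p = 3.43e-04, limma). Its paralog SLC35B2 and the donor synthase PAPSS1 were not called, at -0.69 and -0.36. At an adjusted p of at most 0.05, 5 of the 7 were lower and 1 higher.

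Of 16 ligands and receptors of SLRPs with a value, 3 fell, 1 rose and 12 were not called, with a median of -0.04. By the call rule 4.06% of all genes fell and 2.63% rose. At an adjusted p of at most 0.05, 7 of the 16 were lower and 5 higher, against 27.1% and 30.8% of all genes. CCN4, a matricellular protein that biglycan and decorin bind (listed under its older symbol WISP1), fell from 63.5 and 64.5 FPKM to 3.08 and 2.77 (log2 fold change -4.05, adjusted p = 1.49e-04, limma). TGFB2 and TGFB3, growth factors that decorin can hold, fell by 1.37 and 1.19 on the log2 scale. BMP2, a related factor, rose from 2.91 and 2.94 FPKM to 16.8 and 18.3 (log2 fold change 2.24, adjusted p = 2.49e-04, limma). TGFB1 and LRP1, an endocytic receptor of decorin, were the most expressed genes without a call, at -0.42 and -0.38.

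Of 11 proteases and helpers with a value, 3 fell and 2 rose by the call rule, against 4.06% and 2.63% of all genes. At an adjusted p of at most 0.05, 4 of the 11 were lower and 2 higher, against 27.1% and 30.8% of all genes. MMP3, a protease that can cleave decorin, rose from 3.82 and 4.06 FPKM to 229 and 228 (log2 fold change 5.54, adjusted p = 8.00e-05, limma). ADAMTS5, an aggrecanase, rose by 1.59 on the log2 scale from 0.68 FPKM in each SCR library. PCOLCE, the enhancer of procollagen processing, had 206 and 191 FPKM in SCR and 22.6 and 18.5 in PTP2 (log2 fold change -3.22, adjusted p = 3.93e-04, limma). MMP2, a gelatinase, fell by 1.75. BMP1, the protease that matures biglycan and osteoglycin, fell from 53.0 and 50.9 FPKM to 18.5 and 17.8 (log2 fold change -1.47, adjusted p = 3.00e-04, limma) and is named after its value was seen. MMP14, with -0.88, and ADAMTS4, with -0.06, were not called.

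The genes nearest to a member were sought by the Euclidean distance of log2(FPKM + 1) over the 4 libraries, as a description. For LUM they were IFITM2 (distance 0.858), CNN1 (0.908) and MRGPRF (0.973). CNN1, the smooth muscle calponin, had 38.9 and 35.6 FPKM in SCR and 0.94 and 0.84 in PTP2. For DCN they were CAPS (0.190), MGARP (0.236) and ZBTB12 (0.241). For BGN the nearest were OR5H15 (0.116) and RGS22 (0.190), both at 0.05 FPKM or less in PTP2. The third lies on chromosome Y and is among the 7 genes counted above. Nothing about shared control follows from these distances.

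Markers of other cells that make SLRPs were read beside these values. Of 8 fibroblast and pericyte markers with a value, 3 were lower in PTP2 (PDGFRB, FAP and DPT) and 0 were higher by the call rule, against 4.06% and 2.63% of all genes. Their summed level was 73.9 and 75.8 FPKM in SCR and 30.4 and 30.7 in PTP2. PDGFRB had 21.8 and 21.2 FPKM in SCR and 6.28 and 6.53 in PTP2. Others lay higher in PTP2, without a call. PDGFRA had 0.62 and 0.78 FPKM in SCR and 1.65 and 1.52 in PTP2 (adjusted p = 0.00315, limma), TCF21 had 0.17 and 0.09 against 0.36 and 0.72, and RGS5 had 0.23 and 0.27 against 0.42 and 0.31. PI16 was at most 0.03, DPT was listed at 0 in both PTP2 libraries, and THY1 had no value. Of 11 markers of tendon, bone and cartilage 1 was lower (SOX9, 10.5 and 10.1 FPKM against 2.84 and 2.74), and their sum was 20.09 and 20.01 FPKM in SCR and 11.17 and 11.02 in PTP2. TNMD, SP7, IBSP and ACAN were at most 0.04 in each library. RUNX2 lay between 4.66 and 5.56 FPKM and SCX between 2.14 and 2.84. BGLAP had 1.09 and 0.76 in SCR and was listed at 0 in both PTP2 libraries. MATN3 had 0.65 and 0.59 FPKM in SCR and 1.22 and 1.25 in PTP2 (adjusted p = 0.00144, limma). At an adjusted p of at most 0.05, 3 of the 11 were lower and 1 higher, against 27.1% and 30.8% of all genes. Myeloid markers summed to between 6.23 and 7.4 FPKM over the 4 libraries, with 0 of 6 called, against 6.69% of all genes. At an adjusted p of at most 0.05, 2 of the 6 were lower and 1 higher, against 27.1% and 30.8% of all genes. The 2 lower were CD14 and CSF1R, and the 1 higher was FCER1G. Of the 6, 3 had a mean of at least 1 FPKM in 1 group or both. Epithelial markers summed to 11.1 and 10.7 FPKM in SCR and 4.18 and 4.15 in PTP2, and 2 of 8 were called lower (KRT8 and KRT18). In RNA from whole cultures, fewer cells that express a gene and less RNA per cell cannot be told apart, and the part of these markers in the SLRP values was not tested.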

How the data were processed

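RNA of 4 U87 libraries was sequenced single-end with 50-base reads on a BGISEQ-500. The authors deposited FPKM values per gene and library, rounded to 2 decimals, in 2 tables, and 0 of 66380 values differed between them. The submitters' processing notes name HISAT2 2.1.0 and hg19, but 85.4% of the table's gene starts lie within 1000 bases of RefSeq GRCh38.p14, so positions were taken as GRCh38. The counting program is not given in the sources used here. The deposited table also holds log2 fold changes, p-values, q-values and false discovery rates (treated as a score) of the authors' own comparisons, which were not used.

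Depth was estimated from genes with 1 transcript, as the read number that made FPKM times length (less 50 bases) fall on whole reads. At that depth 66.2% to 70.3% of the values used lay within 0.2 of a whole read, where chance gives 40%. Each gene whose value exceeded 0 somewhere (16595) was fitted with limma 3.58.1 (R 4.3.3, default eBayes) on log2(FPKM + 1), with group as the only term. The fit was tested on simulated data. Calls needed a 2-fold change and an adjusted p no higher than 0.001, the thresholds the study used. The alternatives included a replicate block, a pseudocount of 0.1, a filter that asked for 1 FPKM in 2 or more libraries, quantile and median-ratio scaling, an eBayes trend, an adjusted p of 0.05 and leaving out each library.

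The members and lists were chosen with earlier results of these data known. Genes named in the text are all members and other family genes, from each further list the called genes with the largest changes (at most 4) and the 2 most expressed uncalled genes, the nearest listed genes around each locus and the 3 genes nearest to LUM, DCN and BGN, of which 1, on chromosome Y, enters only a count. Genes of chromosome Y are given as counts and not by level, and that count and the further markers named were added after their values were seen. Promoters came from RefSeq (GRCh38.p14), transcripts from GENCODE 29 (GRCh38) and hairpin targets from the study's oligo table.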

Additional observations from a re-analysis of the deposited data

How the results depend on the processing

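The strict calls depended on the fit more than the fold changes did. With a pseudocount of 0.1, with the replicate block and with each library left out, limma called 0 genes of any kind, members (3 lower as reported) and companions (5 higher and 17 lower as reported) included. The fit as reported called 437 higher and 674 lower, and with the FPKM filter, quantile or median-ratio scaling or the eBayes trend there were 395 to 509 higher and 702 to 780 lower. In the fits without calls 8700 to 10185 genes had an unadjusted p under 0.05. At an adjusted p of 0.05 and no minimum fold, 5107 genes were higher and 4496 lower, and 14 and 45 among the companions. A fold of at least 2 was reached by 3 or 4 members and by 17 to 23 companions downwards, and by 0 members and 5 or 6 companions upwards, under all 10 alternative fits. LUM, DCN, BGN and PRELP kept their direction in each of them. The log2 fold change of LUM ran from -5.09 to -4.44, of DCN from -2.34 to -1.75, of BGN from -3.67 to -1.46 and of PRELP from -1.50 to -0.72, with the lowest value of each at a pseudocount of 0.1. FMOD and OGN, at a few reads, changed sign between fits. Signs of FMOD and OGN carry no information at this depth. PTPRN had -2.83 with a pseudocount of 0.1 (adjusted p = 0.00130), -2.74 with the replicate block (adjusted p = 0.00396) and -2.76 to -2.71 with a library left out. The deviations of same-numbered libraries correlated at 0.0635 over 11272 genes, so no strong effect shared by a replicate number was seen. A correlation across genes cannot show whether the libraries were made in pairs. With the block, 4888 genes were higher and 4251 lower at an adjusted p of 0.05. About 3 reads per PTP2 library limit what can be said of BGN.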
